A study of Mus musculus with 9 samples.

Results

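Transcripts of cholesterol synthesis, uptake and export were followed across 3 kinds of mouse cells, as a list of 30 genes out of the 37224 in the deposited count table. The list was matched by gene symbol, each symbol named exactly 1 gene, and all 30 passed the low-count filter. It holds 18 synthesis enzymes (7 of the mevalonate branch and 11 of the sterol branch), 5 genes that control the pathway, and 7 genes of sterol transport, uptake, esterification and export. The cells were all of the C57BL/6 strain, with 3 libraries per group, which the labels number 4 to 6 for iGABA, 7 to 9 for GAD67 and 1 to 3 for MEF cells and which are given in that order. iGABA cells were passage-zero embryonic fibroblasts taken through 14 days of conversion toward GABAergic interneurons, of which the first 2 were spent in fibroblast medium and the rest in neuronal medium. GAD67 cells, named so in the labels, were primary interneurons of the E18.5 cortex. MEF cells were passage-zero fibroblasts of E13.5 embryos. Their labels also speak of a move to neuronal inducing medium without saying whether it came before lysis, so the medium behind each MEF value is uncertain. A GFP sort preceded RNA extraction in the iGABA and GAD67 groups, while fibroblasts were trypsinised only. What drove GFP is not stated for either sorted group.

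Cells make cholesterol from acetyl-CoA in a pair of stretches, a mevalonate branch that builds isoprenoid units and a sterol branch that joins them into squalene, closes the rings and trims the product. Transcription of these enzymes is driven by SREBP proteins, which the escort protein SCAP carries out of the endoplasmic reticulum when sterols are scarce and which INSIG proteins hold back when sterols are plentiful. LXR receptors do the opposite job, as they sense oxidised sterols and switch on export pumps. In the brain, which plasma lipoproteins do not supply, cholesterol is made locally. Neurons make much of their own before birth and later take up part of it from apolipoprotein E particles secreted by astrocytes.

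Promoter windows of 300 bases, from 250 before to 50 after a gene start, were held for 25 of the 30 genes (RefSeq, GRCm38.p6). They were searched on both strands for a sterol regulatory element written TCACNCCAC, for the CCAAT box, which binds NF-Y, a partner of SREBP at sterol genes, and for the E-box CACGTG. None of the matches printed here overlaps another. A CCAAT box lay in a window of 19 of the 25 genes (76.0%), against 41.1% of 27025 genes with a window, and an E-box in 6 (24.0%), against 8.09%. The sterol regulatory element matched in 1 gene of the list, Hmgcs1 (4.0%), against 1.44% of all genes. Many working elements depart from these letters, so a window without a match says only that these letters are absent. Windows of 3 synthesis genes are shown because their transcripts took different courses below, with Hmgcs1 and Cyp51 lower and Tm7sf2 higher in both sorted groups than in fibroblasts. Capitals mark the matches, read 5′ to 3′ on the gene's strand, and ATTGG is the CCAAT box on the other strand.
Hmgcs1 (chr13:119690101-119690400, plus strand): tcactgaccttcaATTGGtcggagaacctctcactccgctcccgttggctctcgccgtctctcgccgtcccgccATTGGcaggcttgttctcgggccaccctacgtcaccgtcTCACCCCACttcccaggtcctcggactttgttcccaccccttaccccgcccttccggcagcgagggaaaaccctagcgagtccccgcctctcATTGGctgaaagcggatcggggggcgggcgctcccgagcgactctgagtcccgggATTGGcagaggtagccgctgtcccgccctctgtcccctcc
Cyp51 (chr5:4104648-4104947, minus strand): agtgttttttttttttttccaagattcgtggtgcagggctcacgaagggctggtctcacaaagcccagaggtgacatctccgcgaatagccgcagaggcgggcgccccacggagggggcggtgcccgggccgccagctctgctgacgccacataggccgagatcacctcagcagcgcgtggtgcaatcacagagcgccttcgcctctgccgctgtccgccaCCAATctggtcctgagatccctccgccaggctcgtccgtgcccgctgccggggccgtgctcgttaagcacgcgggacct
Tm7sf2 (chr19:6067801-6068100, minus strand): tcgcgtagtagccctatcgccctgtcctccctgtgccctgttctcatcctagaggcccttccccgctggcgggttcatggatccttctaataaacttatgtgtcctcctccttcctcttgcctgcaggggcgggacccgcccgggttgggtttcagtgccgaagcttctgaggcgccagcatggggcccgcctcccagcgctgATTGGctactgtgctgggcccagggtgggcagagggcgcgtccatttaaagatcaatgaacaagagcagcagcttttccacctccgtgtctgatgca
The Hmgcs1 window holds 4 CCAAT boxes and the sterol regulatory element at bases 114 to 122, while the Cyp51 and Tm7sf2 windows hold 1 CCAAT box each.

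Levels are given as normalised CPM, the usual depth-scaled count, after TMM scaling, and library totals ran from 27501521 to 38975523 counts. The labels were checked on Gad1, which stood at 408, 396 and 412 CPM in iGABA, 752, 718 and 767 in GAD67 and 0.622, 0.526 and 0.483 in MEF libraries. Summed over 14 macrophage markers, the libraries held 11.8 to 13.7 CPM in iGABA, 6.84 to 8.59 in GAD67 and 627 to 676 in MEF samples. In iGABA libraries, C1qa and Cx3cr1 had no count and Cd68 made up nearly all of that sum. Summed over 10 radial glia and astrocyte markers, values were 11.2 to 15.2 CPM in iGABA, 138 to 168 in GAD67 and 70.0 to 77.8 in MEF libraries. In GAD67 cells Sox9 (mean 58.3 CPM), Pax6 (57.1) and Fabp7 (23.55) made up most of that sum. There, 5 of the 10 markers, Gfap, Aqp4 and S100b among them, averaged under 1 CPM, and Gjb6 had no count. Slc1a3, Aldh1l1 and Hopx were lower in GAD67 than in MEF cells. Of the oligodendrocyte markers, Cnp stood at 165 ± 4.22 CPM in iGABA, 12.2 ± 0.734 in GAD67 and 13.2 ± 0.876 in MEF cells (SD, n = 3), and Olig2 had no count in iGABA or MEF libraries. Fibroblast markers (8 genes) summed to 707 to 998 CPM in iGABA, 124 to 132 in GAD67 and 75874 to 84283 in MEF libraries. Their falls in iGABA against MEF cells were unequal, only 1.82-fold for Pdgfra and 2.49-fold for Thy1. The other markers fell between 103-fold (Dcn) and 266-fold (Fn1). All 9 GABAergic neuron markers were higher in iGABA than in MEF cells and lower than in GAD67 cells. They summed to 956 to 971 CPM in iGABA, 8989 to 9455 in GAD67 and 26.6 to 29.5 in MEF libraries. Below GAD67 cells, iGABA cells stood from 1.84-fold lower (Gad1) to 65.1-fold lower (Slc32a1).

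Of the 18 synthesis genes, 12 had their highest mean level in MEF cells, 5 in iGABA cells (Mvk, Pmvk, Mvd, Tm7sf2 and Dhcr7) and 1 in GAD67 cells (Acat2). These counts only describe the list, as the matching shares over all genes were not computed. The summed level of the 18 synthesis genes was 1343 ± 64.7 CPM in iGABA, 957 ± 23.7 in GAD67 and 1891 ± 69.8 in MEF cells (SD, n = 3), and the ranges of the 3 groups did not overlap. With library size alone, an alternative added after seeing the data, the sums were 1494 to 1607 CPM in iGABA, 932 to 995 in GAD67 and 1603 to 1676 in MEF libraries, and the iGABA and MEF ranges overlapped. In bulk RNA, fewer cells of a type and less RNA per cell cannot be told apart. A gene is called higher or lower where edgeR's quasi-likelihood test gave an adjusted p under 0.05. Between iGABA and MEF cells, 9 of the 30 genes were higher and 16 lower, which is 30% and 53.3%, while 42.1% of all 18085 tested genes were higher and 39.7% lower. Differences of at least 2-fold were fewer, with 4 genes higher and 6 lower, against 23.9% and 23.8% of all genes. The median log2 fold change of the list was -0.42, against 0.05 for all genes. With libraries scaled by their totals alone, all genes shifted by 0.42 upward, 9941 were called higher and 5283 lower (65.3% of calls upward, against 51.5% with TMM), and the list gave 13 higher and 8 lower. Small falls in this comparison therefore hold relative to TMM scaling.

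Between GAD67 and MEF cells the list leaned further down, with 6 genes higher and 22 lower (20% and 73.3%), against 43.1% and 43.8% of all genes. At 2-fold or more, 2 were higher and 16 lower, where all genes gave 28.5% and 31.6%. The median log2 fold change was -1.11, against 0.00 for all genes. Between iGABA and GAD67 cells, 19 genes were higher and 4 lower, against 41.3% and 39.3% of all genes, and 13 were at least 2-fold higher and none at least 2-fold lower, against 26.6% and 20%. The median was 0.78, against 0.02. Each pair of these comparisons shares a group of libraries, so they are not independent. The plot of differences shows the 3 comparisons side by side.

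**Figure D1:**
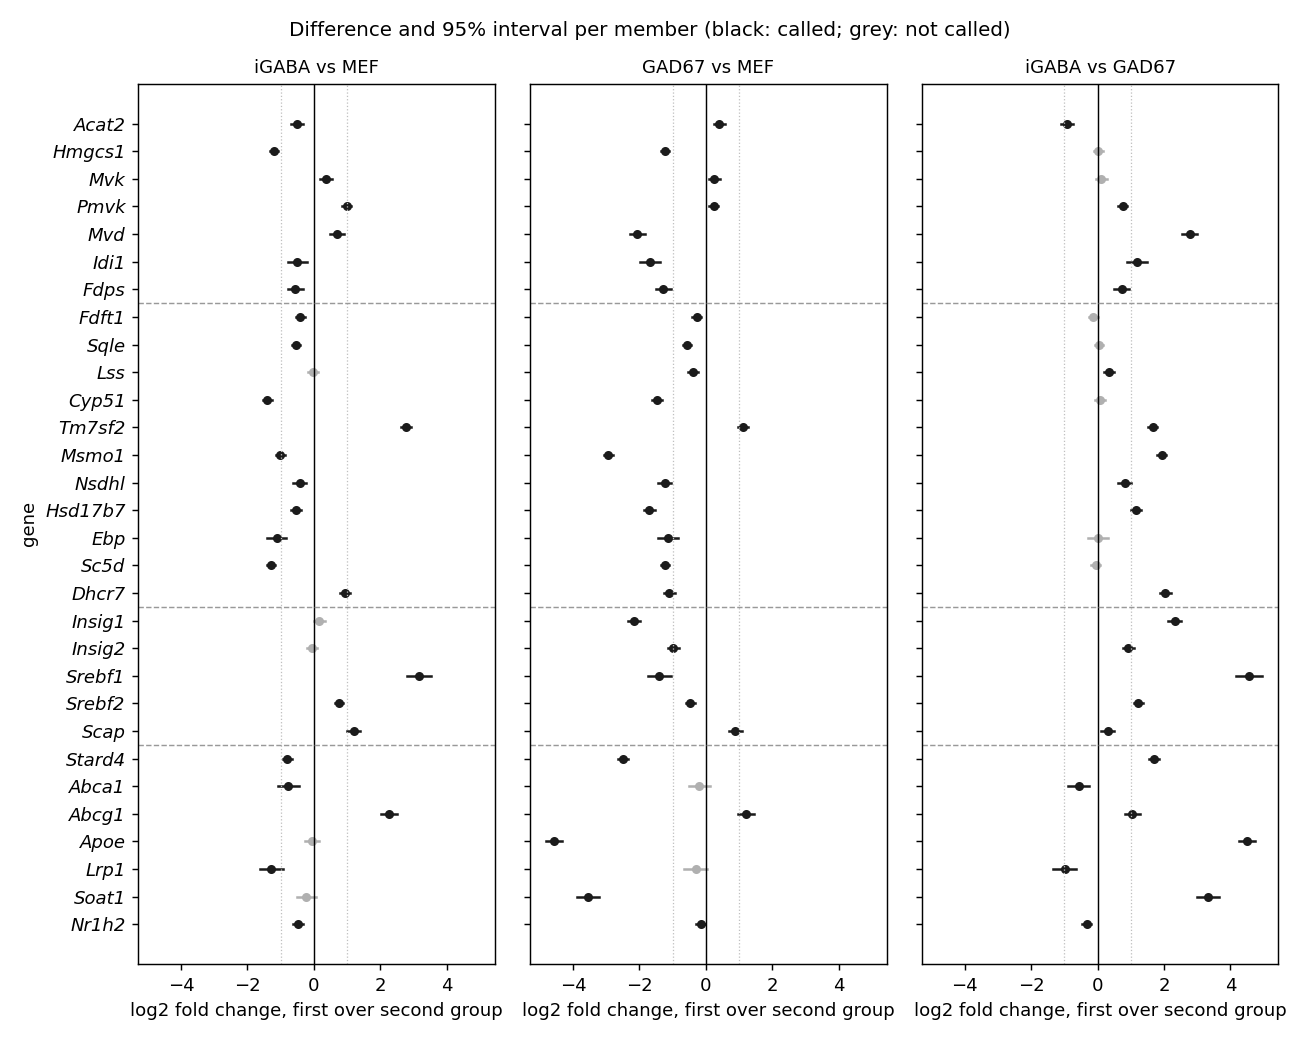
Each row is 1 of the 30 genes, grouped from top to bottom as mevalonate branch, sterol branch, SREBP control, and transport and export. Points are edgeR log2 fold changes and bars their 95% intervals, black where called and grey where not, with dotted lines at 2-fold. Most points lie left of 0 in the GAD67 vs MEF panel (22 of 30 called lower) and right of 0 in the iGABA vs GAD67 panel (19 called higher).

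In the mevalonate branch, 3 of 7 genes were higher and 4 lower in each of the comparisons with MEF cells, though not the same ones. That is 42.9% and 57.1%, where all genes gave 42.1% and 39.7% in iGABA and 43.1% and 43.8% in GAD67 cells. Hmgcs1 (ENSMUSG00000093930, mm10 chromosome 13, 119690462 to 119708086), the cytosolic HMG-CoA synthase that opens the committed pathway, had 235, 246 and 226 normalised CPM in iGABA, 229, 239 and 227 in GAD67 and 519, 535 and 572 in MEF libraries. Both sorted groups stood below every MEF library and overlapped each other. Hmgcs1 fell 2.30-fold in iGABA cells against MEF (log2 fold change -1.20, SE 0.0580, adjusted p = 4.42e-10, edgeR) and 2.34-fold in GAD67 cells (log2 fold change -1.23, SE 0.0580, adjusted p = 2.19e-10, edgeR). The 95% interval of iGABA over GAD67 was -0.10 to 0.15 on the log2 scale.

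Mvd (ENSMUSG00000006517, mm10 chromosome 8, 122433596 to 122443422), the decarboxylase that yields isopentenyl diphosphate, went opposite ways in the sorted groups. It had 92.8, 95.2 and 90.4 normalised CPM in iGABA, 15.1, 14.7 and 10.7 in GAD67 and 54.4, 54.9 and 60.8 in MEF libraries. No group overlapped another. Mvd rose 1.64-fold in iGABA cells against MEF (log2 fold change 0.71, SE 0.0963, adjusted p = 1.54e-05, edgeR), fell 4.19-fold in GAD67 cells (log2 fold change -2.07, SE 0.106, adjusted p = 5.13e-10, edgeR), and was 6.85-fold higher in iGABA than in GAD67 cells (adjusted p = 4.25e-11, edgeR). The kinases just before it were higher in both sorted groups. Pmvk averaged 57.8 ± 1.91 CPM in iGABA, 34.4 ± 0.674 in GAD67 and 29.2 ± 1.36 in MEF cells, and Mvk 27.7 ± 1.06 CPM in iGABA, 25.7 ± 2.04 in GAD67 and 21.5 ± 1.27 in MEF cells (SD, n = 3). Against MEF, Pmvk was 1.98-fold higher in iGABA and 1.18-fold higher in GAD67 cells, and Mvk 1.29-fold higher in iGABA and 1.20-fold higher in GAD67 cells, each called.

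Acat2, the thiolase that joins acetyl-CoA units, was lower in iGABA than in both other groups, at 46.2 ± 5.53 CPM against 87.5 ± 5.01 in GAD67 and 66.0 ± 2.52 in MEF cells (SD, n = 3; log2 fold change -0.92 against GAD67 and -0.51 against MEF). Fdps, which builds farnesyl diphosphate, and the isomerase Idi1 lay in between in iGABA cells. Fdps averaged 22.8 ± 1.72 CPM in iGABA, 13.8 ± 1.98 in GAD67 and 33.5 ± 2.19 in MEF cells, and Idi1 5.24 ± 0.383 CPM in iGABA, 2.30 ± 0.312 in GAD67 and 7.40 ± 0.436 in MEF cells. The absolute levels of these genes are uncertain, since near-identical copies elsewhere in the genome took reads of their own. Pseudogenes of Fdps held 62.9% of the combined counts in iGABA, 62.9% in GAD67 and 60.8% in MEF libraries, and the Idi1 pseudogene Gm13502 held 45.2% in iGABA, 42.6% in GAD67 and 48.0% in MEF libraries. For Acat2 and its copy Acat3 the shares were 15.5% in iGABA, 14.8% in GAD67 and 10.8% in MEF libraries. Acat2 also matches Tcp1 over 445 bases at 98.7% identity. Tcp1, which was lower in iGABA than in MEF cells (log2 fold change -0.90), was not summed. Its part in the Acat2 counts was not tested. With copies summed, an alternative chosen after seeing the data, log2 fold changes in iGABA against MEF were -0.48 for Fdps, -0.58 for Idi1 and -0.43 for Acat2, with the same calls. With scaling by library size alone, the iGABA calls against MEF were lost for Fdps (adjusted p = 0.219), Idi1 (adjusted p = 0.553) and Acat2 (adjusted p = 0.270, edgeR).

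**Figure D2:**
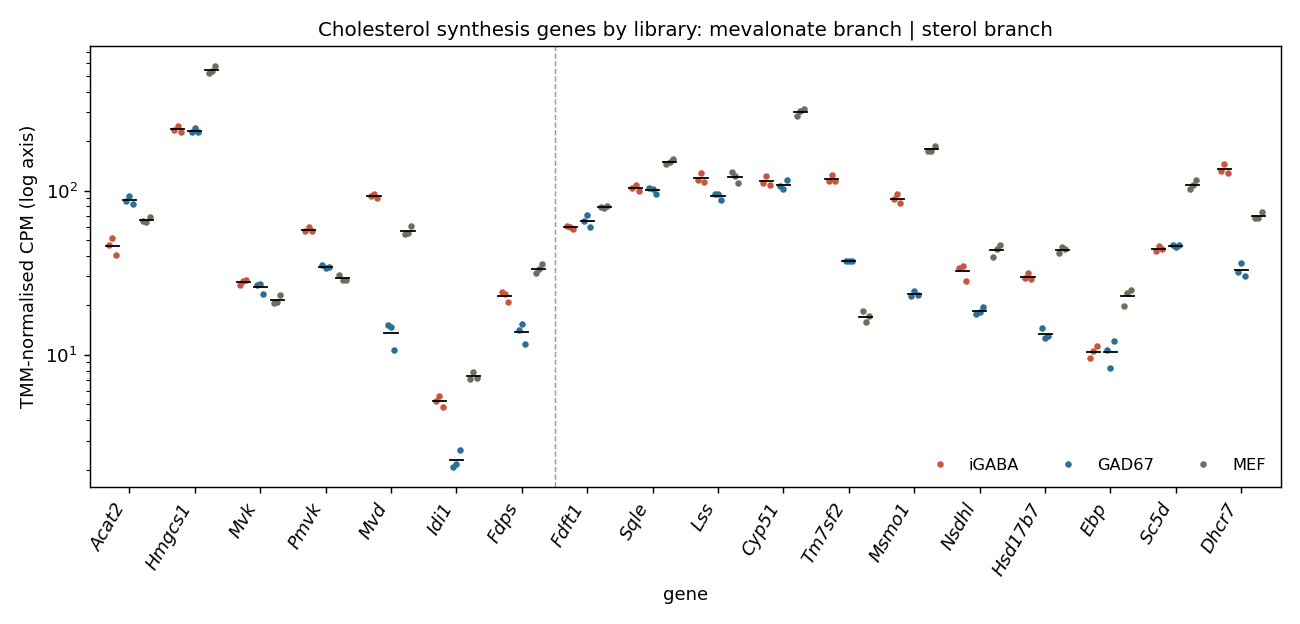
Points are single libraries (3 per group) and short lines group means, as TMM-normalised CPM on a log axis, for the 18 synthesis genes in pathway order with the mevalonate branch left of the dashed line. Tm7sf2 stands out with its highest level in iGABA cells and its lowest in MEF cells, whereas Hmgcs1, Cyp51 and Sc5d are highest in MEF cells and overlap between iGABA and GAD67 cells.

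The sterol branch gave 2 genes higher, 8 lower and 1 not called of 11 in iGABA against MEF cells. All genes there gave 42.1% higher and 39.7% lower. In GAD67 against MEF cells, 1 was higher and 10 lower, against 43.1% and 43.8% of all genes. Cyp51 (ENSMUSG00000001467, mm10 chromosome 5, 4081145 to 4104746), the lanosterol demethylase, had 111, 123 and 108 normalised CPM in iGABA, 107, 102 and 115 in GAD67 and 284, 304 and 313 in MEF libraries. The sorted groups overlapped, and every MEF library lay above both. Cyp51 fell 2.63-fold in iGABA (log2 fold change -1.40, SE 0.0670, adjusted p = 4.17e-10, edgeR) and 2.78-fold in GAD67 cells (log2 fold change -1.47, SE 0.0672, adjusted p = 1.50e-10, edgeR). Sc5d, a late sterol desaturase, and Ebp, a sterol isomerase on the X chromosome, gave the same picture. Sc5d averaged 44.2 ± 1.31 CPM in iGABA, 46.2 ± 0.559 in GAD67 and 108 ± 6.77 in MEF cells, and Ebp 10.5 ± 0.888 CPM in iGABA, 10.4 ± 1.89 in GAD67 and 22.8 ± 2.68 in MEF cells (SD, n = 3). Against GAD67 cells the iGABA intervals were -0.07 to 0.22 for Cyp51, -0.19 to 0.06 for Sc5d and -0.29 to 0.30 for Ebp on the log2 scale, so a difference of 2-fold lies outside each.

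The genes Msmo1, Nsdhl and Hsd17b7, whose products act together after Cyp51, separated all 3 groups. Msmo1 (ENSMUSG00000031604, mm10 chromosome 8, 64718139 to 64733792), the sterol methyl oxidase, had 89.0, 94.6 and 83.4 normalised CPM in iGABA, 22.8, 24.3 and 23.3 in GAD67 and 175, 174 and 188 in MEF libraries. It fell 2.01-fold in iGABA (log2 fold change -1.01, SE 0.0591, adjusted p = 3.31e-09, edgeR) and 7.62-fold in GAD67 cells (log2 fold change -2.93, SE 0.0644, adjusted p = 9.46e-14, edgeR), with no overlap between any groups. Nsdhl averaged 32.3 ± 3.59 CPM in iGABA, 18.4 ± 0.939 in GAD67 and 43.4 ± 3.64 in MEF cells, and Hsd17b7 29.8 ± 1.39 CPM in iGABA, 13.4 ± 0.945 in GAD67 and 43.5 ± 1.91 in MEF cells (SD, n = 3). Both were called lower than MEF in each sorted group and higher in iGABA than in GAD67 cells. The iGABA falls of Nsdhl (adjusted p = 0.936, edgeR) and Hsd17b7 (adjusted p = 0.0758, edgeR) were lost with scaling by library size alone.

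Early sterol steps differed by less than 2-fold. Squalene epoxidase Sqle, a slow step of the branch, averaged 104 ± 3.84 CPM in iGABA, 100.4 ± 4.37 in GAD67 and 149.7 ± 5.68 in MEF cells, and squalene synthase Fdft1 59.7 ± 1.14 CPM in iGABA, 65.5 ± 5.75 in GAD67 and 79.4 ± 1.17 in MEF cells (SD, n = 3). Both were called lower than MEF in each sorted group, with log2 fold changes between -0.58 and -0.28. In iGABA cells these calls were lost with scaling by library size alone (adjusted p = 0.0549 for Sqle and 0.945 for Fdft1, edgeR), as was that of Fdft1 in GAD67 cells (adjusted p = 0.437, edgeR). The Fdft1 pseudogene Gm6781 held 24.9% of their combined counts in iGABA, 22.5% in GAD67 and 23.3% in MEF libraries. Of the Fdft1 exon bases, 26.8% lie opposite exons of Ctsb, whose own level fell by 2.09 on the log2 scale in iGABA against MEF cells and fell by 3.69 in GAD67 against MEF cells. The strand setting of the counting is not given in the sources used here, so how far Ctsb reads touch Fdft1 was not tested. Lss, which closes the sterol rings, was not called in iGABA against MEF cells (119 against 121 CPM, 95% interval -0.17 to 0.13), and was lower in GAD67 than in MEF cells at 92.8 CPM, a call lost with library size alone (adjusted p = 0.0582, edgeR).

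Tm7sf2 and Dhcr7 were the sterol genes that rose in converted cells. Tm7sf2 (ENSMUSG00000024799, mm10 chromosome 19, 6062821 to 6068373), a sterol reductase that acts right after Cyp51, had 114, 124 and 114 normalised CPM in iGABA, 37.5, 37.0 and 37.3 in GAD67 and 18.4, 15.8 and 17.1 in MEF libraries. The 3 groups lay far apart, with iGABA highest. Tm7sf2 rose 6.88-fold in iGABA against MEF (log2 fold change 2.78, SE 0.0668, adjusted p = 4.92e-13, edgeR) and 2.18-fold in GAD67 against MEF cells (log2 fold change 1.12, SE 0.0664, adjusted p = 2.34e-09, edgeR), and iGABA exceeded GAD67 cells 3.16-fold. Of its exon bases, 15.3% overlap Vps51 on the same strand, and Vps51 was higher by 0.36 on the log2 scale in iGABA and by 0.97 in GAD67 than in MEF cells. Lbr, a nuclear envelope protein that carries out the same reduction, was lower in both groups than in MEF cells, at 50.3 ± 1.75 CPM in iGABA, 36.3 ± 1.43 in GAD67 and 90.01 ± 2.58 in MEF cells (SD, n = 3). Per exon length, Tm7sf2 transcripts stood to Lbr transcripts as 2.24, 2.54 and 2.39 to 1 in iGABA libraries, 1.05, 1.001 and 1.09 to 1 in GAD67 libraries and 0.202, 0.184 and 0.195 to 1 in MEF libraries. By this measure Lbr was the more abundant reductase transcript in fibroblasts and Tm7sf2 in converted cells, with the pair close to equal in GAD67 cells. The measure divides by all annotated exon bases, including those shared with Vps51. Expressed transcripts of another length would shift the ratios, so the near equality in GAD67 cells is uncertain.

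Dhcr7 (ENSMUSG00000058454, mm10 chromosome 7, 143823145 to 143848410), which makes cholesterol in the last step of its route, had 132, 144 and 129 normalised CPM in iGABA, 31.9, 36.2 and 30.1 in GAD67 and 68.2, 68.0 and 73.9 in MEF libraries. Like Mvd, it moved apart in the sorted groups without overlap. Dhcr7 rose 1.93-fold in iGABA (log2 fold change 0.95, SE 0.0723, adjusted p = 4.98e-08, edgeR), fell 2.14-fold in GAD67 cells (log2 fold change -1.10, SE 0.0748, adjusted p = 1.08e-08, edgeR) and was 4.12-fold higher in iGABA than in GAD67 cells.

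Of the 5 genes of SREBP control, Srebf1, Srebf2 and Scap were higher in iGABA than in both other groups, while Insig1 and Insig2 were not called against MEF cells. Srebf1 (ENSMUSG00000020538, mm10 chromosome 11, 60199089 to 60222581), which encodes the SREBP proteins best known for fatty acid genes, had 1170.0, 1270.2 and 1173 normalised CPM in iGABA, 53.1, 65.2 and 34.3 in GAD67 and 131, 135 and 136 in MEF libraries. The groups were separated without overlap. Srebf1 rose 8.99-fold in iGABA against MEF (log2 fold change 3.17, SE 0.169, adjusted p = 1.25e-09, edgeR), fell 2.63-fold in GAD67 against MEF cells (log2 fold change -1.40, SE 0.163, adjusted p = 2.85e-06, edgeR), and was 23.7-fold higher in iGABA than in GAD67 cells (adjusted p = 6.32e-11, edgeR). The rise against MEF was the largest of the 30 genes. Counts per gene do not separate its alternative first exons, which give different protein forms. Srebf2 (ENSMUSG00000022463, mm10 chromosome 15, 82147266 to 82205376), whose protein mainly drives cholesterol synthesis, had 676, 704 and 684 normalised CPM in iGABA, 302, 309 and 272 in GAD67 and 401, 407 and 407 in MEF libraries. It followed the same order with smaller steps, 1.70-fold higher in iGABA (log2 fold change 0.76, SE 0.0587, adjusted p = 5.28e-08, edgeR) and 1.38-fold lower in GAD67 than in MEF cells (log2 fold change -0.46, SE 0.0587, adjusted p = 6.63e-06, edgeR).

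Per exon length, Srebf1 transcripts stood to Srebf2 transcripts as 1.53, 1.60 and 1.52 to 1 in iGABA, 0.156, 0.187 and 0.112 to 1 in GAD67 and 0.289, 0.293 and 0.296 to 1 in MEF libraries. By this measure, which again divides by all annotated exon bases, Srebf2 was the more abundant of the pair in fibroblasts and cortical interneurons, and Srebf1 in converted cells. Scap, the escort of both, averaged 109 ± 4.28 CPM in iGABA, 88.9 ± 13.46 in GAD67 and 47.8 ± 0.719 in MEF cells (SD, n = 3), which was 2.29-fold higher in iGABA (log2 fold change 1.20, SE 0.0912, adjusted p = 4.93e-08, edgeR) and 1.86-fold above MEF cells in GAD67 cells (log2 fold change 0.89, SE 0.0911, adjusted p = 7.39e-07, edgeR).

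**Figure D3:**
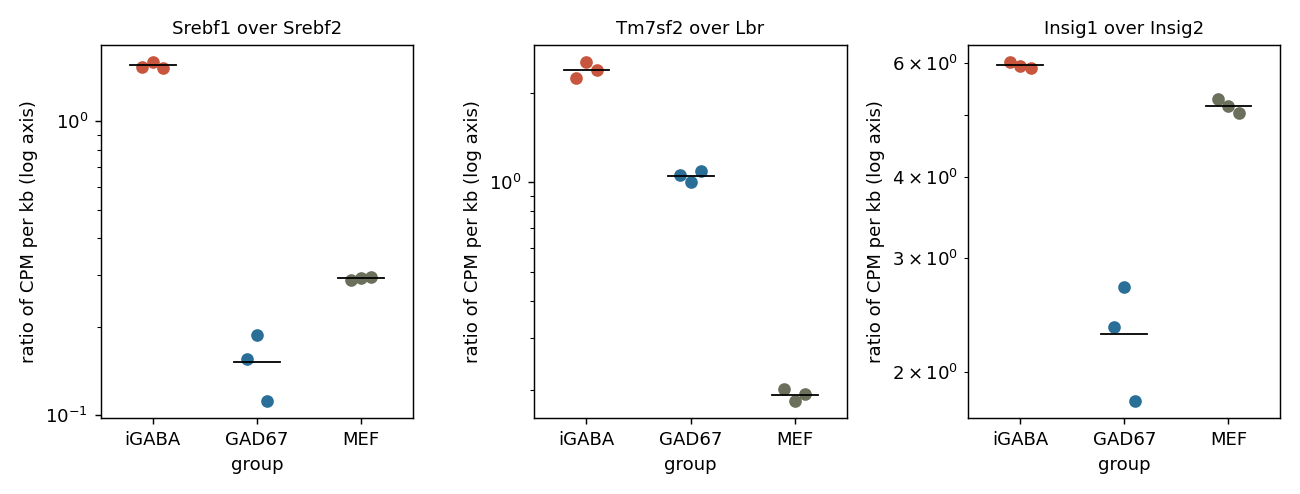
Each point is the ratio of CPM per kilobase of exon for a pair of genes in 1 library (3 per group) and short lines are means, on log axes with a separate scale per panel. The Srebf1 to Srebf2 ratio is above 1 in iGABA libraries only, and the Tm7sf2 to Lbr ratio is lowest in MEF libraries.

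The retention proteins Insig1 and Insig2 did not pass the test between iGABA and MEF cells and were lower in GAD67 than in MEF cells. Insig1 (ENSMUSG00000045294, mm10 chromosome 5, 28071363 to 28078662), itself a target of SREBP, had 215, 232 and 206 normalised CPM in iGABA, 44.2, 48.9 and 37.2 in GAD67 and 188, 194 and 199 in MEF libraries. iGABA libraries lay just above MEF libraries, a difference that did not pass the test (log2 fold change 0.17, SE 0.0815, adjusted p = 0.0737, edgeR) and that passed with only the 6 libraries compared (adjusted p = 0.00519, edgeR) or without a low-count filter (adjusted p = 0.0283, edgeR). In GAD67 cells Insig1 fell 4.45-fold (log2 fold change -2.15, SE 0.0866, adjusted p = 4.07e-11, edgeR). Insig2 averaged 47.0 ± 2.79 CPM in iGABA, 24.7 ± 1.72 in GAD67 and 48.4 ± 2.59 in MEF cells (SD, n = 3), and was called lower in GAD67 than in both other groups. With scaling by library size alone, Insig1 and Insig2 were both called higher in iGABA than in MEF cells.

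**Figure D4:**
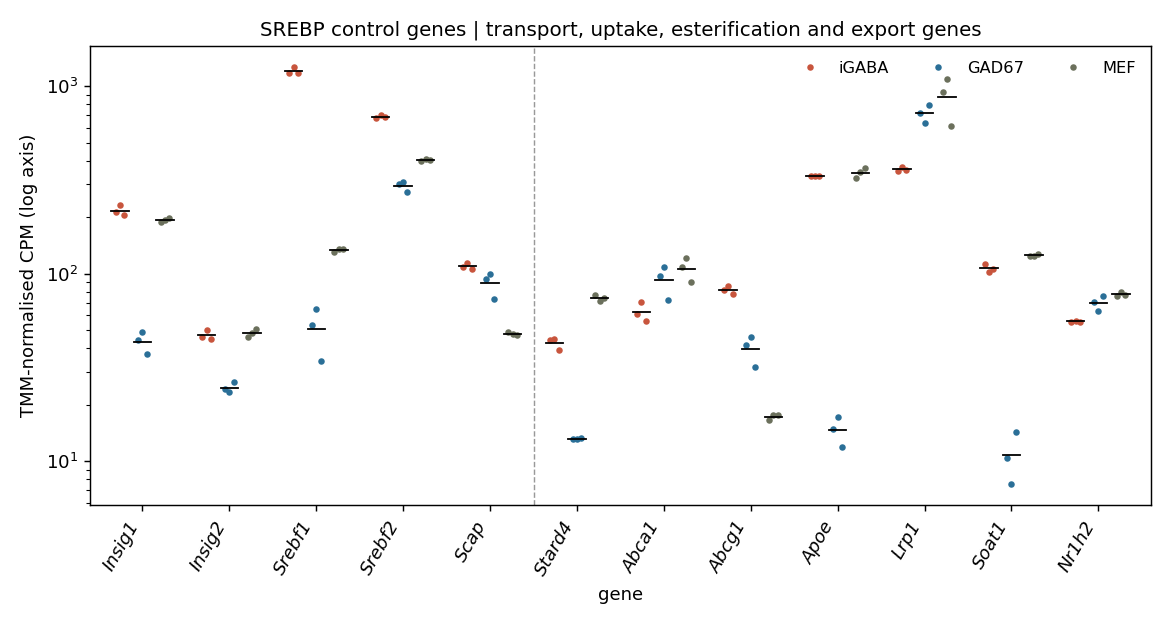
Points are single libraries (3 per group) and short lines group means, as TMM-normalised CPM on a log axis, for 5 genes of SREBP control left of the dashed line and 7 genes of transport and export right of it. Srebf1 is highest in iGABA libraries, and Apoe and Soat1 are lowest in GAD67 libraries, where iGABA and MEF libraries stand close together.

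Apoe and Soat1 were near the fibroblast level in iGABA cells and far below it in GAD67 cells. Apoe (ENSMUSG00000002985, mm10 chromosome 7, 19696109 to 19699166), the lipoprotein that carries cholesterol between brain cells, had 334, 333 and 332 normalised CPM in iGABA, 14.8, 17.2 and 11.9 in GAD67 and 323, 349 and 365 in MEF libraries. iGABA and MEF libraries overlapped, with a 95% interval of -0.25 to 0.14 on the log2 scale, and GAD67 libraries lay far below. Apoe fell 23.6-fold in GAD67 against MEF cells (log2 fold change -4.56, SE 0.109, adjusted p = 2.15e-13, edgeR) and was 22.7-fold higher in iGABA than in GAD67 cells (adjusted p = 5.15e-13, edgeR). With library size alone, Apoe was called higher in iGABA than in MEF cells (log2 fold change 0.36, adjusted p = 0.00302, edgeR). Macrophages and astrocytes also make Apoe. The macrophage marker sum above was highest in MEF libraries and low in both sorted groups, and the part of macrophages in the MEF level of Apoe was not tested. Soat1 (ENSMUSG00000026600, mm10 chromosome 1, 156428108 to 156474328), which esterifies cholesterol for storage, had 112, 103 and 106 normalised CPM in iGABA, 10.4, 7.53 and 14.3 in GAD67 and 125, 124 and 128 in MEF libraries. It fell 11.7-fold in GAD67 cells (log2 fold change -3.55, SE 0.154, adjusted p = 9.12e-11, edgeR) and was not called between iGABA and MEF cells (adjusted p = 0.130, edgeR), although those libraries did not overlap, and it was called lower with only the 6 libraries compared (adjusted p = 0.00143, edgeR). Stard4, a carrier of cholesterol between membranes, averaged 42.7 ± 3.18 CPM in iGABA, 13.2 ± 0.155 in GAD67 and 74.2 ± 2.44 in MEF cells (SD, n = 3). Stard4 was called lower than MEF in both sorted groups, by 1.73-fold in iGABA and 5.64-fold in GAD67 cells.

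The LXR-driven exporters went apart. Abcg1 (ENSMUSG00000024030, mm10 chromosome 17, 31057698 to 31115777), which loads cholesterol onto lipoproteins, had 82.0, 86.4 and 78.0 normalised CPM in iGABA, 41.5, 46.0 and 31.9 in GAD67 and 16.5, 17.6 and 17.5 in MEF libraries. Its groups did not overlap. Abcg1 rose 4.76-fold in iGABA (log2 fold change 2.25, SE 0.111, adjusted p = 5.66e-10, edgeR) and 2.31-fold in GAD67 against MEF cells (log2 fold change 1.21, SE 0.111, adjusted p = 2.60e-07, edgeR). Abca1, the pump that starts lipoprotein assembly, had 61.2, 70.4 and 55.9 normalised CPM in iGABA, 97.7, 109 and 72.4 in GAD67 and 108, 121 and 90.1 in MEF libraries. Abca1 fell 1.70-fold in iGABA against MEF cells (log2 fold change -0.77, SE 0.142, adjusted p = 0.000256, edgeR), while GAD67 and MEF libraries overlapped and did not pass (adjusted p = 0.214, edgeR). Without GAD67 replicate 8 that difference was called, at a log2 fold change of -0.32 (adjusted p = 0.0373, edgeR). Nr1h2, which encodes the widely expressed LXR receptor, averaged 55.8 ± 0.352 CPM in iGABA, 70.0 ± 6.32 in GAD67 and 77.7 ± 1.63 in MEF cells (SD, n = 3). It was lower in iGABA than in both other groups, calls that were lost with library size alone (adjusted p = 0.346 against MEF and 0.0568 against GAD67 cells, edgeR). The call of Nr1h2 in GAD67 against MEF cells (log2 fold change -0.15, adjusted p = 0.0407, edgeR) was lost without MEF replicate 1, 2 or 3 (adjusted p = 0.0566, 0.134 and 0.0842, edgeR) and without GAD67 replicate 7 or 8 (adjusted p = 0.0861 and 0.206, edgeR).

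Lrp1 (ENSMUSG00000040249, mm10 chromosome 10, 127538161 to 127621148), a large receptor that takes up Apoe-bearing particles, had 353, 371 and 359 normalised CPM in iGABA, 719, 638 and 790.0 in GAD67 and 935, 1098 and 611 in MEF libraries. iGABA libraries lay below all others, and the third MEF library stood well under the other MEF libraries. Lrp1 was lower in iGABA than in GAD67 cells (log2 fold change -0.99, SE 0.159, adjusted p = 7.78e-05, edgeR) and than in MEF cells (log2 fold change -1.29, SE 0.160, adjusted p = 6.86e-06, edgeR). The difference between GAD67 and MEF cells did not pass (adjusted p = 0.0915, edgeR), and was called lower in GAD67 cells without MEF replicate 3 (log2 fold change -0.50, adjusted p = 0.000392, edgeR) or without GAD67 replicate 9 (log2 fold change -0.36, adjusted p = 0.0456, edgeR).

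Set against both other groups, iGABA cells were higher than each in 8 of the 30 genes, namely Pmvk, Mvd, Tm7sf2, Dhcr7, Srebf1, Srebf2, Scap and Abcg1. That is 26.7%, against 19.6% of all 18085 genes. They were lower than each in 4, Acat2, Abca1, Lrp1 and Nr1h2 (13.3%, against 15.1% of all genes), and in between in 6 (20%, against 32.4%). In 7 genes, all of them synthesis enzymes (Hmgcs1, Mvk, Fdft1, Sqle, Cyp51, Ebp and Sc5d), iGABA cells were called against MEF and not against GAD67 cells (23.3%, against 14.8% of all genes). With library size alone, 5 of these were called higher in iGABA than in GAD67 cells, namely Hmgcs1, Mvk, Sqle, Cyp51 and Sc5d, with log2 fold changes of 0.22, 0.30, 0.24, 0.27 and 0.13. Fdft1 was called lower in iGABA than in GAD67 cells with RLE size factors (log2 fold change -0.15, adjusted p = 0.0445, edgeR). It was also called lower without GAD67 replicate 9 (log2 fold change -0.20, adjusted p = 0.00402, edgeR). The remaining 5 were called against GAD67 and not against MEF cells, and only 1 of these, Lss, was a synthesis enzyme beside Insig1, Insig2, Apoe and Soat1 (16.7%, against 2442 of all 18085 genes). The 95% interval of iGABA against GAD67 cells lay within 2-fold for 10 of 18 synthesis genes and for 3 of the other 12, in all 43.3%, against 39% of all genes with an interval. The interval of iGABA against MEF cells lay within 2-fold for 10 of 18 synthesis genes and for 17 of all 30 genes. For MEF cells the share over all genes was not computed.

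Dividing by exon length allows a rough comparison of levels between genes. The length counts all annotated exons of a gene and can differ from that of the transcripts expressed, so the order depends on the annotation. Reads taken by the copies of Fdps, Fdft1 and Acat2 described above are missing from their values here. In iGABA cells the most abundant transcripts of the list per kilobase were Srebf1 at 214 ± 10.1, Apoe at 168 ± 0.431 and Srebf2 at 138 ± 2.92 CPM per kilobase (SD, n = 3). In GAD67 cells they were Hmgcs1 at 71.6 ± 1.99, Srebf2 at 58.9 ± 3.95 and Lrp1 at 40.4 ± 4.29, and in MEF cells Apoe at 175 ± 10.7, Hmgcs1 at 168 ± 8.49 and Srebf2 at 81.2 ± 0.664. Apoe and Hmgcs1 in MEF cells lay within their spread of each other. Idi1 was lowest in every group, at 1.49 ± 0.109 in iGABA, 0.656 ± 0.0891 in GAD67 and 2.11 ± 0.124 CPM per kilobase in MEF cells, with the limit that its pseudogene took reads. Srebf1 ranked 17 of 30 in GAD67 and 15 of 30 in MEF cells.

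Further genes of sterol handling, taken from lists of the pathway, moved in both directions. For comparison, 42.1% of all tested genes were higher and 39.7% lower in iGABA against MEF cells. In GAD67 against MEF cells these shares were 43.1% and 43.8%. Of 5 further synthesis steps, 2 were higher and 3 lower in iGABA against MEF cells, and 1 was higher and 3 lower in GAD67 against MEF cells. Of 10 further genes of uptake and intracellular transport, 3 were higher and 7 lower in each of these comparisons. Mylip, the ligase that marks lipoprotein receptors for destruction, stood at 6.70 ± 1.06 CPM in iGABA, 7.64 ± 1.68 in GAD67 and 129 ± 1.81 in MEF cells, and Lipa, the lysosomal enzyme that frees cholesterol from its esters, at 22.6 ± 2.27 CPM in iGABA, 7.63 ± 0.993 in GAD67 and 215 ± 15.8 in MEF cells (SD, n = 3). Of 10 further genes of export and conversion, 4 were higher and 5 lower in iGABA, and 1 higher and 8 lower in GAD67, against MEF cells. The oxysterol-making hydroxylase Ch25h had 0.247, 0.167 and 0.219 CPM in iGABA libraries and 17.1, 16.3 and 15.9 in MEF libraries, and Cyp7b1, which breaks oxysterols down, had 0.198, 0.311 and 0.469 CPM in iGABA libraries and 10.8, 10.3 and 11.9 in MEF libraries. Macrophages express Lipa and Ch25h as well, and their part in the MEF levels was not tested.

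Of 9 fatty acid genes known as SREBP targets, 5 were higher (55.6%), 1 was lower (11.1%) and 3 were not called in iGABA against MEF cells, against 42.1% of all genes higher and 39.7% lower. Their median log2 fold change was 0.44, against 0.05 for all genes. The 18 cholesterol synthesis genes had a median of -0.50 in the same comparison. Acss2, which makes acetyl-CoA from acetate, averaged 98.2 ± 2.78 CPM in iGABA, 21.0 ± 1.64 in GAD67 and 44.5 ± 0.265 in MEF cells (SD, n = 3), 2.20-fold higher in iGABA and 2.12-fold lower in GAD67 than in MEF cells. Fatty acid synthase Fasn was higher in both, at 482 ± 59.1 CPM in iGABA, 464 ± 93.5 in GAD67 and 308 ± 31.4 in MEF cells. In GAD67 against MEF cells, 2 of the 9 were higher and 5 lower (22.2% and 55.6%), against 43.1% and 43.8% of all genes. The proteases that release SREBP changed by at most 1.20-fold against MEF cells, with Mbtps1 higher in both groups and Mbtps2 lower in iGABA and higher in GAD67 cells.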

How the data were processed

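RNA sequencing of 9 mouse samples in 3 groups of 3 was analysed from 1 table of whole-number read counts per gene, which the authors deposited without normalisation. Per the submitters' processing notes, BWA 0.7.2, featureCounts and DESeq 1.10.1 were used with the mm10 genome, and per the labels' protocols the libraries were strand-marked by the dUTP method. For the counting, neither strand setting nor annotation release is given in the sources used here. GENCODE vM21 supplied symbols for 95.2% of genes. All 30 members lie where vM21 puts them.

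Genes passed edgeR's filterByExpr (minimum count 10, minimum total 15), which left 18085. Counts were scaled by TMM and tested with edgeR 4.0.16 (quasi-likelihood, all 9 libraries in 1 fit, R 4.3.3), with Benjamini-Hochberg adjustment over all tested genes and calls under 0.05. The shared biological coefficient of variation was 7.91%. The procedure was tested on simulated data. Alternatives were library size alone, RLE factors, DESeq2 1.42.0, no low-count filter, only the 6 libraries compared and leaving out each library. Summing near-identical copies was added after seeing the data. Copies were searched with BLAST 2.17.0 (90% identity or more over 300 bases or more).

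No label ties replicates to separate cultures or animals. Each p-value thus measures only how these samples spread, and that spread may be technical. No replicate pair agreed within counting noise (chi-square per gene at least 2.49). The members and lists were chosen with earlier results of these data known. All 30 members are named, and from each further list the 2 genes with the largest called change in iGABA against MEF cells. Of the genes so chosen, 1 is not reported here. Lists are described by counts and medians beside all genes, with no set test.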

Additional observations from a re-analysis of the deposited data

How the results depend on the processing

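Counts of called genes, over the table and over the 30 members, stayed within 1.5 times the reported count under each alternative, except that 8 members and not 16 were lower in iGABA than in MEF cells with library size alone. Leaving out 1 library at a time gave 9 members higher and 16 lower in iGABA against MEF cells, 6 higher and 21 to 23 lower in GAD67 against MEF cells, and 19 higher and 4 to 5 lower in iGABA against GAD67 cells. Of 334 member values recomputed per comparison, 315, 320 and 319 kept direction and side of the threshold in iGABA against MEF, GAD67 against MEF and iGABA against GAD67 cells.

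Log2 fold changes changed sign in the following cases. Among them, Fdft1 in iGABA against MEF cells (-0.41) and Nr1h2 in GAD67 against MEF cells (-0.15) had been called lower with TMM scaling. Values for iGABA against MEF cells were 0.005 for Fdft1, 0.392 for Lss, 0.373 for Insig2, 0.362 for Apoe and 0.191 for Soat1 with library size alone, 0.003 for Lss with no low-count filter. Lss ran from -0.086 to 0.024 when 1 library at a time was left out, with the sign turned without MEF replicate 1 or iGABA replicate 6. Between GAD67 and MEF cells they were 0.031 for Abca1 and 0.071 for Nr1h2 with library size alone. For iGABA against GAD67 cells they were 0.060 for Fdft1 and 0.130 for Sc5d with library size alone, -0.010 for Ebp with RLE size factors, -0.010 for Ebp with DESeq2, -0.002 for Ebp with only the 6 libraries compared. Hmgcs1 ran from 0.000 to 0.062 when 1 library at a time was left out, with the sign turned without iGABA replicate 5. Ebp ran from -0.129 to 0.115 when 1 library at a time was left out, with the sign turned without iGABA replicate 6 or GAD67 replicate 8. Library size alone ignores the shift of all genes that TMM removes, and for the other settings the cause was not tested. No paired analysis was possible because replicate numbers run from 1 to 9 and no number is shared between groups.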
